A study of Homo sapiens with 6 samples.

Results

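The genes described here encode proteins of the spliceosome core and the heterogeneous nuclear ribonucleoproteins (hnRNPs). They are 46 genes chosen by name from the 36651 genes of the deposited expression table, and all 46 were found there by symbol. By subcomplex they comprise 3 proteins specific to the U1 particle, 7 proteins of the Sm ring, 3 SF3A and 4 SF3B subunits of the U2 particle, the 2 U2AF subunits, 7 proteins of the U4/U6.U5 tri-snRNP, PRPF19, the splicing regulators TRA2A, TRA2B and RBM39, and 16 hnRNPs. Levels were measured by paired-end sequencing of polyadenylated RNA in 3 siMTA1 and 3 control libraries of HCT116, an epithelial cell line that was established from a human colorectal carcinoma.

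The spliceosome removes introns from pre-mRNA. It is built stepwise from small nuclear ribonucleoproteins (snRNPs), each a small nuclear RNA with a ring of Sm or LSm proteins and its own set of further proteins. The U1 snRNP recognises the start of an intron, U2AF and the U2 snRNP recognise its end and the branch point, and the U4/U6.U5 tri-snRNP then joins before the active site forms. The hnRNPs coat nascent transcripts and take part in the choice of splice sites, in RNA export and in RNA stability, and several of them are known to limit or favour the inclusion of particular exons.

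The descriptions of the siMTA1 samples read siMTA, and the design text siMTA1, but their titles read CrMTA1, which the labels do not explain. It is therefore uncertain whether a short interfering RNA or a genome edit in a selected line lowered MTA1, a subunit of the NuRD chromatin-remodelling complex. The control samples are called control in 1 label and wild type in another, and the agent or line that served as the control is not given in these sources. No sample carries a further label of genotype or treatment. The descriptions of all samples carry the tag 3rd, which the labels do not explain. Nothing says that replicates came from separate cultures, so the p-values rest on a spread between samples that may be technical alone. MTA1 stood at 45.5 ± 2.16 FPKM in siMTA1 cells and 66.75 ± 0.855 FPKM in control cells (SD, n = 3 each), which left 68.2% of the control level (adjusted p = 0.000376). In bulk RNA, less transcript per cell and fewer affected cells cannot be told apart. Among the markers of colorectal epithelium, EPCAM, CDH1, KRT8, KRT18, KRT19 and CDX2 were expressed, whereas CDX1, VIL1 and CEACAM5 were at or below 0.04 FPKM and GPX2 was listed at 0. Of the leukocyte, endothelial and fibroblast markers found in the table, only COL1A1 averaged over 1 FPKM (2.37 ± 0.262 FPKM in siMTA1 and 1.89 ± 0.0907 FPKM in control cells), and the others were at or below 0.16 FPKM in every library.

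Levels are given in FPKM, fragments scaled to the length of the gene and to the depth of the library, so that genes can be compared per length. A log2 fold change is siMTA1 over control on the log2(FPKM + 1) scale, and a gene was called changed where limma gave a Benjamini-Hochberg adjusted p under 0.05 over the 12141 genes that averaged 1 FPKM or more. All 46 genes passed that filter in both groups. Depth implied by the steps of the lowest FPKM values was 57200000, 66700000 and 61100000 fragments in the siMTA1 libraries and 42900000, 56700000 and 65400000 in the control libraries. At these depths the values rest on at least 672 implied fragments per library, for U2AF1, and on many more for the other genes.

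The spliceosome and hnRNP genes differed little between siMTA1 and control cells. SNRNP70, HNRNPA1, HNRNPH1 and HNRNPK rose with siMTA1, each by less than 1.25-fold, and no gene of the 46 fell. The 4 called genes make up 8.70% of the 46, where 18.2% of all tested genes were called. In the higher direction alone, 6.13% of all tested genes were called, and in the lower direction 12.1%, or 744 and 1463 genes. This split depended on the scaling, with 1000 higher and 939 lower under upper-quartile scaling, 1128 and 802 under median centring and 1011 and 895 under quantile normalization. With each library scaled to the same summed FPKM (TPM scaling), 832 were higher and 1231 lower, so more genes stayed lower than higher. The median log2 fold change was 0.03 over the 46 genes, with 29 positive and 17 negative values, against a median of -0.05 over all tested genes. The 46 log2 fold changes ran between -0.23, for SNRPB, and 0.29, for HNRNPH1, and their interquartile range was 0.164, against 0.220 over all tested genes. Except for U2AF1, at percentile 4.92 of mean level among tested genes, the 46 lay at percentile 65.6 (SF3B3) or above. They were not compared with genes of like level.

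For the 42 genes that were not called, the 95% confidence intervals give the range of differences that fits the spread between these samples under this scaling. That spread may be technical alone, so the intervals may be too narrow for separate cultures. The lowest bound was a log2 fold change of -0.41, for SNRPB, and the highest was 0.34, for SNRPF. All 42 intervals lay within 1.5-fold in either direction, and 40 of them within 1.25-fold. Without regard to the test, the groups did not overlap for 39.1% of all tested genes, with siMTA1 above control for 13.2% and below it for 25.9%. Of the 46 genes, 12 (26.1%) had all 3 siMTA1 values above all 3 control values and 6 (13.0%) had them below.

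**Figure D1:**
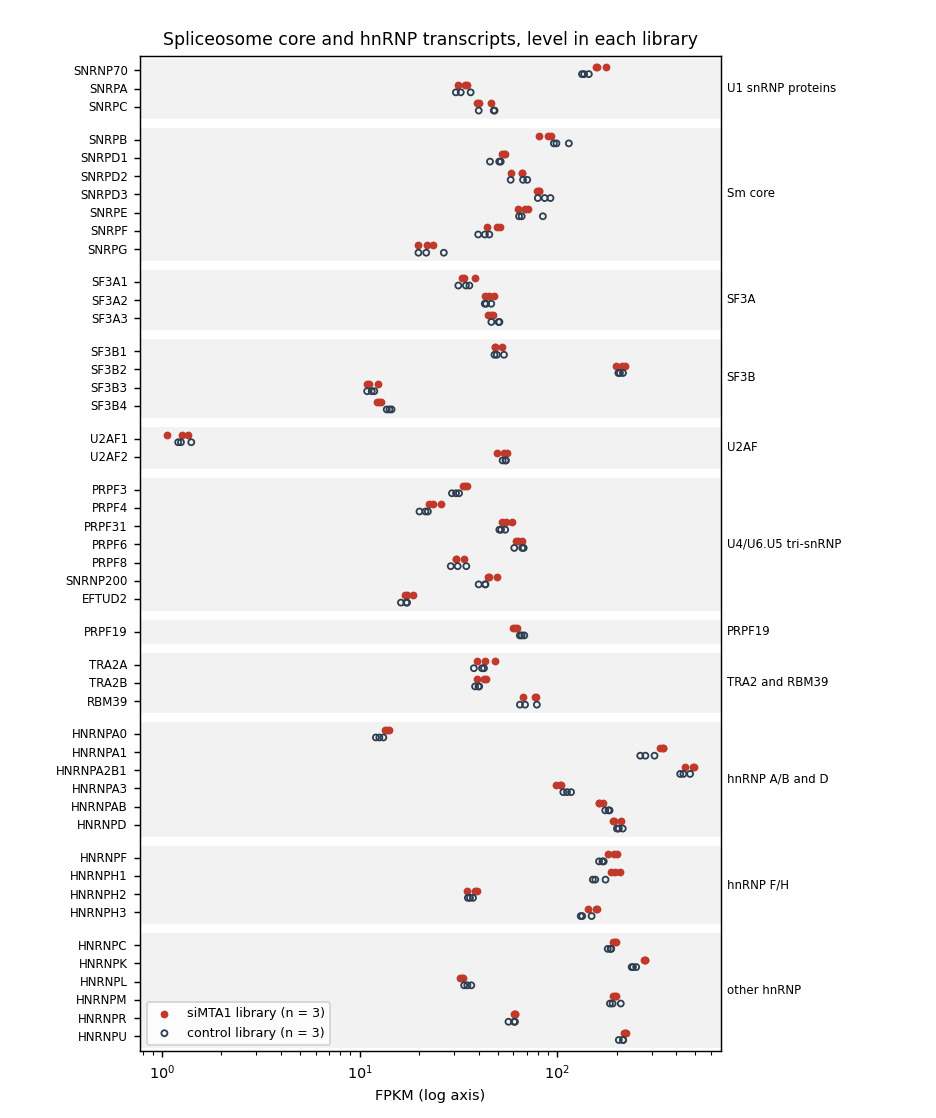
Level of each of the 46 transcripts in FPKM on a log axis, by subcomplex, with filled points for the 3 siMTA1 libraries and open points for the 3 control libraries. Levels span U2AF1, near 1 FPKM, to HNRNPA2B1, at 473.0 FPKM in siMTA1 and 440.9 FPKM in control cells, and the groups lie close to each other for every gene.

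**Figure D2:**
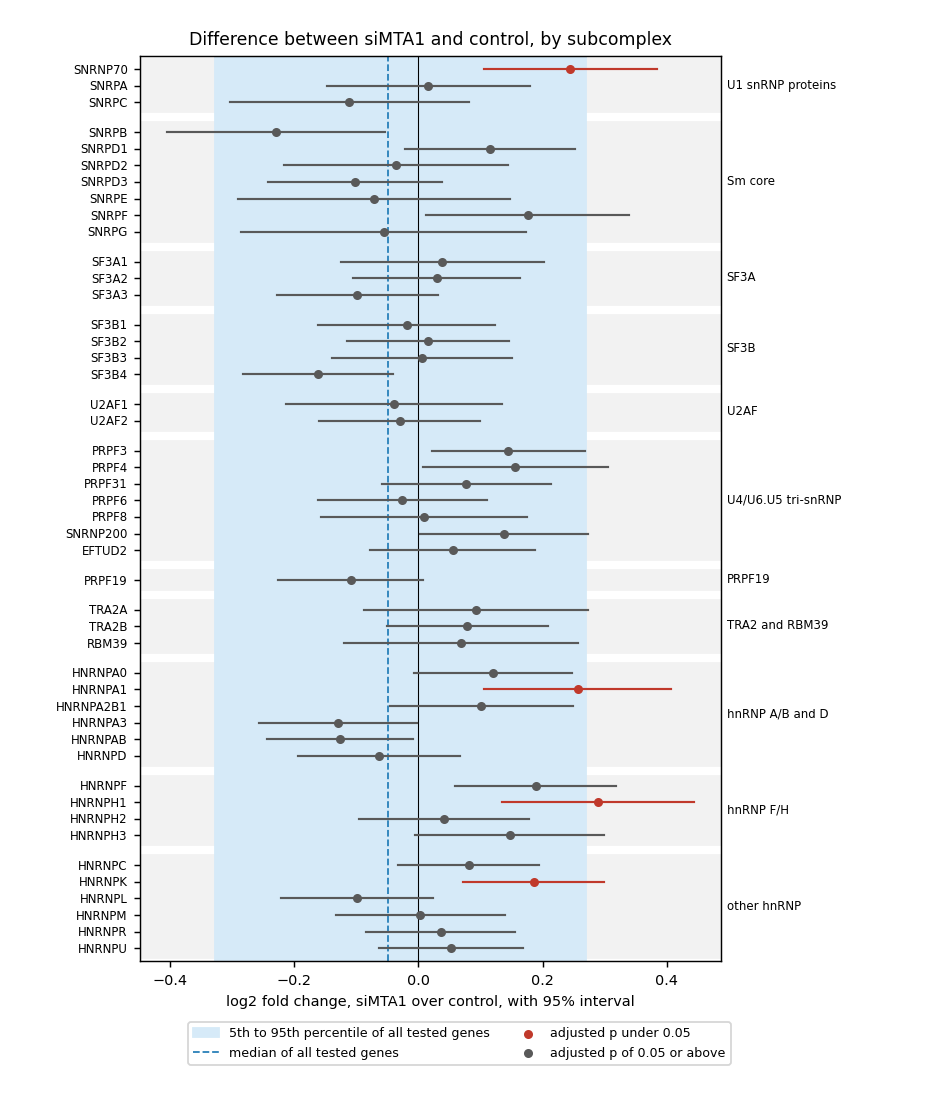
Log2 fold change of each of the 46 transcripts, siMTA1 over control, with its 95% confidence interval. The shaded band holds the middle 90% of all tested genes. SNRNP70, HNRNPA1, HNRNPH1 and HNRNPK, drawn in red, passed the test.

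SNRNP70 encodes the U1-70K protein, which binds U1 snRNA and contacts splicing regulators, and lies at chr19:49085419-49108605 on the plus strand (GRCh38, GENCODE 29). It stood at 159.02, 175.62 and 157.50 FPKM in the siMTA1 libraries and at 144.45, 133.41 and 136.65 FPKM in the control libraries. The groups did not overlap, and the siMTA1 mean was 164.0 ± 10.1 FPKM, against 138.2 ± 5.67 FPKM in control (log2 fold change 0.25, SE 0.06, adjusted p = 0.0254). The call was lost without siMTA1 replicate 2 (adjusted p = 0.0912), control replicate 2 (0.104) or control replicate 3 (0.0584), and over all 19 alternatives the adjusted p ran between 0.00224 and 0.104. The other U1 proteins were not called. SNRPA, which binds a stem-loop of U1 snRNA, was at 33.6 ± 1.88 and 33.2 ± 2.95 FPKM in siMTA1 and control cells, and SNRPC, which helps U1 hold the start of the intron, at 41.9 ± 3.72 and 45.3 ± 4.57 FPKM.

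HNRNPA1 encodes hnRNP A1, an abundant nuclear protein best known as a repressor of splice sites, and lies at chr12:54280193-54287088 on the plus strand. Its level was 341.77, 343.74 and 331.24 FPKM in the siMTA1 libraries and 262.97, 310.45 and 279.12 FPKM in the control libraries. Every siMTA1 library lay above every control library, and the control libraries were the more scattered (338.9 ± 6.72 against 284.2 ± 24.1 FPKM, log2 fold change 0.26, adjusted p = 0.0283). Among the fits that leave out 1 library, the call held only without control replicate 2 (adjusted p = 0.0261) and was otherwise lost, at 0.0507 to 0.0905. Over all 19 alternatives its adjusted p ran between 0.0187 and 0.138. HNRNPA1 has 74 annotated pseudogenes, of which 70 were in the table and summed to at most 5.45 FPKM in a library, so the way fragments were shared between them and HNRNPA1 leaves its level uncertain.

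None of the other hnRNPs of the A/B and D families was called. HNRNPA2B1, the most abundant transcript of the 46, was at 473.0 ± 27.2 FPKM in siMTA1 and 440.9 ± 26.2 FPKM in control cells, with overlapping groups (adjusted p = 0.304). HNRNPA3 was at 104.96, 103.80 and 98.60 FPKM in the siMTA1 libraries and 112.05, 117.47 and 107.29 FPKM in the control libraries. HNRNPAB was at 162.58, 162.44 and 169.75 FPKM against 181.80, 183.87 and 174.85 FPKM in control. All siMTA1 libraries lay below all control libraries for both genes, but neither was called (log2 fold change -0.13 for each, adjusted p = 0.135 for HNRNPA3 and 0.117 for HNRNPAB). HNRNPA0 (log2 fold change 0.12) and HNRNPD (-0.06), which binds AU-rich elements of mRNAs, were not called.

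HNRNPH1 encodes hnRNP H1, which binds runs of guanines in pre-mRNA, and lies at chr5:179614178-179634784 on the minus strand. Its level was 195.51, 207.15 and 186.99 FPKM in the siMTA1 libraries and 151.32, 175.42 and 155.74 FPKM in the control libraries. The groups did not overlap, and the log2 fold change was 0.29, the largest of the 46 (196.6 ± 10.1 against 160.8 ± 12.8 FPKM, SE 0.07, adjusted p = 0.0207). The call was lost without siMTA1 replicate 1 (adjusted p = 0.0512), siMTA1 replicate 2 (0.0796) or control replicate 3 (0.0537), and over all 19 alternatives the adjusted p ran between 0.00949 and 0.109. HNRNPF, a close relative, was at 181.03, 192.60 and 201.24 FPKM in the siMTA1 libraries and 169.21, 171.79 and 162.66 FPKM in the control libraries, a difference that just missed the threshold (log2 fold change 0.19, adjusted p = 0.0501) and passed it under 11 of 19 alternatives. HNRNPH3 (0.15, adjusted p = 0.157) and HNRNPH2 (0.04, adjusted p = 0.661) were not called. The median log2 fold change of the 4 F/H genes was 0.17, and it kept that sign in 19 of 19 alternatives, between 0.11 and 0.22. The alternatives reuse the same libraries and several leave the fold changes as they were, so the kept sign is no separate support.

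HNRNPK encodes hnRNP K, a protein with KH domains that binds cytosine-rich RNA and DNA, and lies at chr9:83968083-83980616 on the minus strand. It was at 278.26, 277.11 and 275.27 FPKM in the siMTA1 libraries and 250.77, 241.41 and 237.91 FPKM in the control libraries. The siMTA1 libraries lay within a few FPKM of each other and above all controls (276.9 ± 1.51 against 243.4 ± 6.65 FPKM, log2 fold change 0.19, adjusted p = 0.0342). Among the fits that leave out 1 library the call held only without control replicate 1 (adjusted p = 0.0355), with values of 0.0684 to 0.126 otherwise, and its lowest value over all 19 alternatives was 0.00509. The last 5 hnRNPs were not called. HNRNPC, which binds uridine tracts, had all siMTA1 libraries above all controls (195.2 ± 2.83 against 184.5 ± 3.96 FPKM, adjusted p = 0.286), HNRNPL had them below (32.8 ± 0.614 against 35.2 ± 1.47 FPKM, adjusted p = 0.228), and HNRNPM, HNRNPR and HNRNPU lay between log2 fold changes of 0.00 and 0.05.

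All 4 calls also ended when genes of any level were tested, with adjusted p between 0.0929 and 0.138. HNRNPA1 was in addition lost under quantile normalization (0.0558) and with array weights (0.0610). Summed over the 16 hnRNPs, transcript level was 2849.7 ± 50.4 FPKM in siMTA1 and 2669.1 ± 109 FPKM in control cells, whereas the 30 other genes summed to 1621.7 ± 42.5 and 1603.5 ± 36.6 FPKM. Of the 16 hnRNPs 3 were called (18.8%, all higher), and of the other 30 genes 1 was called (3.33%), where 18.2% of all tested genes were called and 6.13% were called higher. Whether the shares of the hnRNPs and the other genes differ was not tested.

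**Figure D3:**
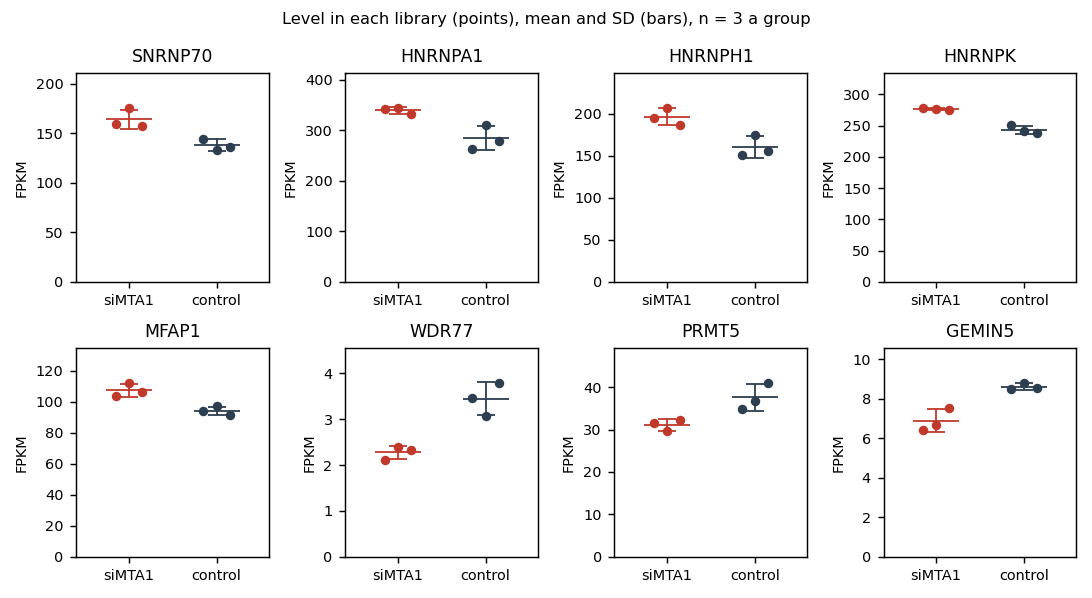
FPKM in each library for the 4 called spliceosome and hnRNP genes in the upper panels and for MFAP1, WDR77, PRMT5 and GEMIN5, genes that work with the spliceosome, in the lower panels. Bars are the mean and SD of 3 libraries a group, siMTA1 left of control. In all 8 panels the groups do not overlap, but the genes shown were picked from those that passed the test on these values. Among all tested genes, 39.1% had groups that did not overlap.

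Upstream sequences of the called genes were read from the RefSeq table of GRCh38.p14 to show what lies before the genes whose level moved. The table gave a window of 250 bases before the most upstream start for 40 of the 46 genes, matched by symbol, with HNRNPA1 not among them. Each sequence below is the longest stretch of that window without an annotated exon of any gene in GENCODE 29, read 5′ to 3′ on the gene's strand, and GEMIN5, a snRNP assembly gene described further on, is shown beside them. Capitals mark matches, on either strand, to a GC box (GGGCGG), an NRF1 half-site (TGCGCA) or the element TCGCGAG. The window of HNRNPH1 held no match to these letters or to the others searched. Only the most upstream start of each gene was read. Which start these cells used was not tested, so a window may lie away from the promoter in use. SNRNP70 lies on the plus strand of chr19, with the stretch at chr19:49085201-49085418, HNRNPH1 on the minus strand at chr5:179634785-179635034, HNRNPK on the minus strand at chr9:83980617-83980710 and GEMIN5 on the minus strand at chr5:154938212-154938461.
SNRNP70: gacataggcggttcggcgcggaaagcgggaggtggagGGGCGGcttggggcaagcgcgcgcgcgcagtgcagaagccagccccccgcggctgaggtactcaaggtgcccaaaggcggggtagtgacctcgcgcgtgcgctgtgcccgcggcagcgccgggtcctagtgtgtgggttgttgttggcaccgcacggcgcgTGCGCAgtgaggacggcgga
HNRNPH1: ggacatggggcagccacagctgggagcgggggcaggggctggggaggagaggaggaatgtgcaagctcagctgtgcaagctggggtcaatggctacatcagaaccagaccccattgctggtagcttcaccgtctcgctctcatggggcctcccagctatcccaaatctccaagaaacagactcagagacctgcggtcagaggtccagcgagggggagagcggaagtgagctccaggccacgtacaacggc
HNRNPK: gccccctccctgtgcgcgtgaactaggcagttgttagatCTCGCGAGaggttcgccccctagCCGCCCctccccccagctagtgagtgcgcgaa
GEMIN5: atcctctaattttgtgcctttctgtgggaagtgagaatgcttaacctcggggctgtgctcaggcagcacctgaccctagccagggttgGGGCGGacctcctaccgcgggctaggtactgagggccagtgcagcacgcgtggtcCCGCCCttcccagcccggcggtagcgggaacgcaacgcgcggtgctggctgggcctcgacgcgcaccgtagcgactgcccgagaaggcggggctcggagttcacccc

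The capitals of the HNRNPK stretch near its centre are 2 matches to TCGCGAG that overlap on the 2 strands. Each motif was searched on both strands and its share set beside that in 8503 windows of tested genes and in all 27305 windows. GGGCGG was found in 26 of the 40 windows (65%), against 70.2% of windows of tested genes and 42.2% of all windows. The letters CCGGAAG, bound by ETS factors, were found in 15 of 40 (37.5%), against 17.1% of windows of tested genes and 8.78% of all windows. In the same order, CCAAT was found in 17 of 40 (42.5%, 35.4% and 33%) and TGCGCA in 5 of 40 (12.5%, 12.2% and 7.08%). TATAAA was found in 4 of 40 (10%, 4.62% and 11.2%) and AAGATGG in 1 of 40 (2.5%, 3.7% and 3.77%). TCGCGAG, which was looked for after the sequences had been seen, was found in 4 of 40 (10%, 4.07% and 2.01%). These shares are descriptions, and a match is not a site in use.

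The Sm proteins form a ring on the U1, U2, U4 and U5 snRNAs. None of the 7 was called. SNRPB, which encodes Sm B, had the lowest log2 fold change of the 46, with 80.82, 89.91 and 92.47 FPKM in the siMTA1 libraries and 114.44, 96.14 and 99.06 FPKM in the control libraries. All siMTA1 libraries lay below all controls, but the difference missed the threshold (log2 fold change -0.23, adjusted p = 0.0691). SNRPD1 had 52.58, 53.57 and 54.63 FPKM against 50.88, 51.78 and 45.69 FPKM in control, with the siMTA1 libraries above (adjusted p = 0.208). SNRPF had 44.14, 51.38 and 49.83 FPKM against 45.34, 43.07 and 39.82 FPKM in control, with overlapping groups (adjusted p = 0.118).

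Control library 1 carried the highest control value for 6 of the 7 Sm genes. The 7 genes summed to 412.35, 436.12 and 419.57 FPKM in the siMTA1 libraries and to 484.85, 421.47 and 417.30 FPKM in the control libraries. Their median log2 fold change was -0.06 with all libraries and 0.05 without control replicate 1, which also had the smallest implied depth. It was also positive without siMTA1 replicate 3, at 0.01, and with array weights, at 0.06. Over the 46 genes, deviation from the group mean had a Spearman correlation with exon length of -0.291 in control library 1. The correlation was -0.432 in siMTA1 library 2 and -0.0187 to 0.296 in the others. Whether depth or length bears on the Sm values was not tested.

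SF3A and SF3B form the part of the U2 snRNP that holds the branch point. SF3A1 and SF3A2 had log2 fold changes of 0.04 and 0.03, and SF3A3 of -0.10. SF3B1, the subunit that contacts the branch site and the target of several splicing inhibitors, was at 49.8 ± 2.68 FPKM in siMTA1 and 50.5 ± 2.94 FPKM in control cells (adjusted p = 0.854). SF3B2 and SF3B3 had log2 fold changes of 0.02 and 0.01. SF3B4 had 12.80, 12.54 and 12.26 FPKM in the siMTA1 libraries and 13.73, 14.52 and 14.17 FPKM in the control libraries. Its siMTA1 values all lay below its control values, and the difference missed the threshold (log2 fold change -0.16, adjusted p = 0.0650).

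U2AF reads the polypyrimidine tract through U2AF2 and the AG that ends the intron through U2AF1. U2AF2 was at 49.82, 55.47 and 54.07 FPKM in the siMTA1 libraries and 52.93, 54.78 and 54.97 FPKM in the control libraries, with overlapping groups. U2AF1 was listed at 1.27, 1.06 and 1.36 FPKM in the siMTA1 libraries and 1.41, 1.21 and 1.25 FPKM in the control libraries, far below its partner. Its level is uncertain because a near-identical copy, U2AF1L5, is annotated in GENCODE 29 (GRCh38) at chr21:6484623-6499261, apart from U2AF1 at chr21:43092956-43107587, and 93.3% of the 50-base windows of U2AF1's 4 coding transcripts also occur in the copy. The copy itself was listed at 0.11, 0.16 and 0.11 FPKM in siMTA1 and 0.06, 0.06 and 0.03 FPKM in control libraries.

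The tri-snRNP proteins prepare the active site, and 6 of the 7 had positive log2 fold changes, none of them called, where 4645 of 12141 tested genes were positive. PRPF3, a protein of the U4/U6 particle, had 34.83, 33.97 and 33.20 FPKM in the siMTA1 libraries and 31.87, 29.35 and 30.77 FPKM in the control libraries (adjusted p = 0.0951), and PRPF4, its partner, had 22.38, 23.43 and 25.69 against 20.10, 22.17 and 21.54 FPKM (adjusted p = 0.128). SNRNP200, the helicase that unwinds U4 from U6, had 44.88, 45.37 and 49.31 against 40.05, 43.17 and 43.36 FPKM (adjusted p = 0.138). For these 3 of the 7 genes every siMTA1 library lay above every control library, as for 13.2% of all tested genes. PRPF31, PRPF8, the protein at the heart of the active site, and the GTPase EFTUD2 lay between log2 fold changes of 0.01 and 0.08, and PRPF6 at -0.03. The median of the 7 was 0.08 and stayed positive in 19 of 19 alternatives, which reuse the same libraries and so give no separate support. The 9 further tri-snRNP proteins listed beside them went both ways, with 4 positive and 5 negative values and a median of -0.01.

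PRPF19, a ubiquitin ligase of the activated spliceosome, was at 59.88, 61.45 and 62.76 FPKM in the siMTA1 libraries and 66.07, 64.68 and 68.12 FPKM in the control libraries. The siMTA1 values lay below the control values but the gene was not called (log2 fold change -0.11, adjusted p = 0.165). The splicing activators TRA2A, TRA2B and RBM39 had overlapping groups and log2 fold changes of 0.09, 0.08 and 0.07.

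Ratios of 2 transcripts within a library do not depend on how the library was scaled, and 12 pairs of paralogs or partners were compared this way. With 3 libraries a group, the exact two-sided permutation test cannot go below 0.1, and no pair passed after adjustment over the 12 pairs (smallest adjusted p 0.24). The groups did not overlap for 5 of the 12 pairs, and some of these hold the called genes HNRNPA1 or HNRNPH1. Among single tested genes 39.1% had groups that did not overlap, and no such share was computed over other pairs of genes. HNRNPA3 over HNRNPA1 was 0.302 ± 0.00472 in siMTA1 and 0.396 ± 0.0260 in control cells, the widest shift of the 12. HNRNPA2B1 over HNRNPA1 was 1.39 ± 0.0554 against 1.55 ± 0.0844, and HNRNPH1 over HNRNPH2 was 5.25 ± 0.224 against 4.42 ± 0.249. Between partners in 1 particle, SNRPD1 over SNRPD3 was 0.669 ± 0.00639 against 0.574 ± 0.0244, and SNRNP200 over PRPF8 was 1.46 ± 0.00986 against 1.34 ± 0.0749 (SD, n = 3 each). In these pairs, exons of HNRNPH2 overlap those of RPL36A-HNRNPH2, and exons of SNRPD3 those of GGT1, on the same strand. HNRNPA1 and HNRNPA3 have 74 and 16 annotated pseudogenes. The levels of these genes, and the ratios that hold them, are therefore uncertain.

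**Figure D4:**
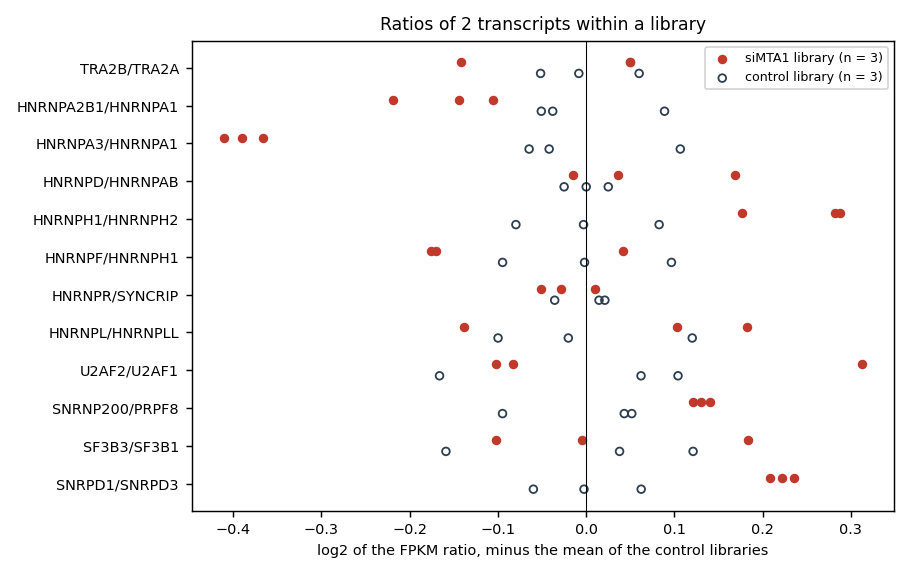
Log2 ratio of 2 transcripts in each library, set to 0 at the mean of the control libraries, with filled points for siMTA1 and open points for control libraries (n = 3 each). Of the 12 pairs, 5 have groups that do not overlap, HNRNPA3/HNRNPA1 with the widest shift. Among single tested genes, 39.1% had groups that did not overlap.

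Other genes of the splicing machinery, 106 tested of 107 listed, were set beside the 46. Here 2 rose with siMTA1 (HNRNPUL2 and MFAP1) and 4 fell (WDR77, PRMT5, GEMIN5 and UBL5), together 5.66% of the list, where 18.2% of all tested genes were called. No gene of the U2 partners, the further tri-snRNP proteins, the LSm ring, the PRP19 complex, the remodelling helicases, the U1-associated genes, the minor spliceosome or the exon junction complex was called.

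MFAP1, a protein of the B complex, had 104.01, 112.25 and 106.38 FPKM in the siMTA1 libraries and 94.03, 97.07 and 91.73 FPKM in the control libraries (log2 fold change 0.19, adjusted p = 0.0420). HNRNPUL2, a relative of hnRNP U, had 13.92, 15.18 and 13.81 FPKM in the siMTA1 libraries and 12.58, 12.34 and 12.21 FPKM in the control libraries (log2 fold change 0.19, adjusted p = 0.0458). The groups did not overlap for either gene, and both were lost in each of the 6 fits that leave out 1 library, with adjusted p over all 19 alternatives between 0.0226 and 0.140 for MFAP1 and between 0.00977 and 0.148 for HNRNPUL2. HNRNPUL2 shares exons with the readthrough gene HNRNPUL2-BSCL2, so its level is uncertain.

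The genes listed for the assembly of snRNPs had mostly lower values with siMTA1. Of 17 tested, 16 had negative log2 fold changes, 3 fell and none rose, and the median was -0.13, between -0.16 and -0.08 over 19 alternatives. Over all tested genes 7496 of 12141 had negative log2 fold changes and 12.1% fell, so the 3 of 17 (17.6%) that fell lie near that share. The number that fell was 0 with no filter on low values and 1 without siMTA1 replicate 1, siMTA1 replicate 2 or control replicate 2. It was 10, with 1 gene higher, with array weights, and 2 to 4 in each of the other alternatives. PRMT5, the methyltransferase that modifies Sm proteins before assembly, had 31.45, 29.56 and 32.24 FPKM in the siMTA1 libraries and 34.98, 36.80 and 41.01 FPKM in the control libraries (log2 fold change -0.26, adjusted p = 0.0280), and passed in 11 of 19 alternatives. WDR77, its partner in the methylosome, had 2.11, 2.39 and 2.33 against 3.47, 3.08 and 3.79 FPKM (log2 fold change -0.44, adjusted p = 0.00590). GEMIN5, which recognises snRNAs for the SMN complex, had 6.45, 6.68 and 7.56 against 8.50, 8.81 and 8.56 FPKM (log2 fold change -0.29, adjusted p = 0.0176).

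For these 3 assembly genes every siMTA1 library lay below every control library. The exons of WDR77 overlap those of an annotated gene on its own strand, listed at 18.9 ± 1.39 in siMTA1 and 25.7 ± 0.801 FPKM in control cells, and of ATP5F1 on the other strand, at 49.8 ± 2.45 and 62.3 ± 2.36 FPKM, so the level of WDR77 is uncertain. UBL5, a small B complex protein, had 33.41, 30.68 and 31.81 FPKM in the siMTA1 libraries and 35.12, 38.0 and 38.89 FPKM in the control libraries. Its siMTA1 values all lay below its control values, and it fell (log2 fold change -0.22, adjusted p = 0.0363), though it passed in only 2 of the 6 fits that leave out 1 library. PRMT5 and UBL5 were not called under upper-quartile scaling, median centring or quantile normalization.

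**Figure D5:**
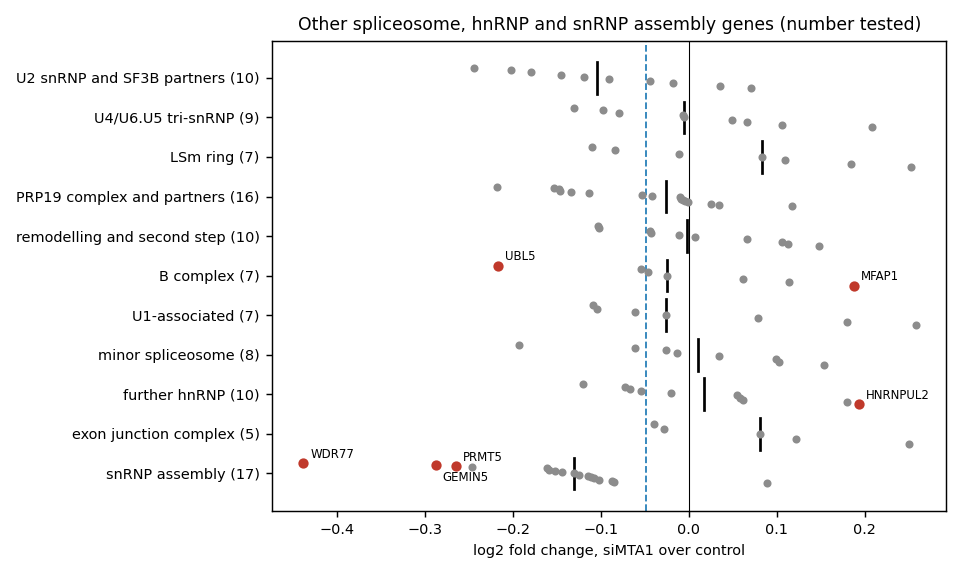
Log2 fold change, siMTA1 over control, of 106 further genes of the splicing machinery, 1 point a gene in rows by group with the number tested. Black ticks are group medians, the dashed line is the median of all tested genes, at -0.05, and red points, which are named, passed the test.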

How the data were processed

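Per the labels' protocols, the libraries were directional and made from polyA-selected RNA. The tools cutadapt, TopHat2 and edgeR and the build GRCh38 stand in the submitters' processing notes, without versions. The counting of fragments, and whether it used strand, is not given in these sources. The authors deposited FPKM for 36651 genes in 6 libraries, and no counts were used, so the count-based test planned for counts was not run.

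Genes were tested with limma 3.58.1 in R 4.3.3 on log2(FPKM + 1), a pseudocount of 1, with an intensity trend, two-sided and without covariates. Fold changes on this scale understate the change of low genes. Genes averaging under 1 FPKM were left out. Implied depths assume the gene lengths of GENCODE 29 and that 1 step of the lowest values, in genes under 150 bases, is 1 fragment; 94.9% to 97.2% of these values were then whole within 0.05. The summed FPKM of a library was 391356 to 403165. Positions, overlaps and pseudogenes came from GENCODE 29 (GRCh38).

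The 46 genes, the gene lists and the pairs were chosen with earlier results of these data known. Values per library are given for every called gene among the 46 and the other splicing genes. Per subcomplex they may also be given for up to 3 other genes with the smallest adjusted p, and fewer are given in some. LUC7L2 was listed but not analysed here, and 1 further splicing gene is not reported here and was left out of the lists. The test was checked on simulated data with independent noise in each library, and 19 alternatives were run. How often that check recovered changes as small as those of the called genes is not given.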

Additional observations from a re-analysis of the deposited data

How the results depend on the processing

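Over the 46 genes, the number higher was 0 with no filter on low values and 0 to 3 when 1 library was left out, against 4. The number lower was 1 with a filter of at least 5 FPKM, under quantile normalization and with the replicate block, and 4 with array weights, against 0. Their median log2 fold change was 0.0768 under upper-quartile scaling, 0.0867 under median centring and 0.0599 under quantile normalization, against 0.03. Under TPM scaling it was 0.0484. Over these settings the 4 genes called higher kept a positive sign in every alternative. Their groups do not overlap, so leaving out 1 library could not change their sign, and the kept sign adds no support to the calls. In some alternative 15 of the 46, none of them called, changed sign, and their main log2 fold changes were at most 0.111 in size.

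Over all tested genes, 297 were higher and 379 lower with no filter, 1000 and 939 under upper-quartile scaling, 1128 and 802 under median centring, 1011 and 895 under quantile normalization and 1434 and 2615 with array weights, against 744 and 1463. Under TPM scaling 832 were higher and 1231 lower. Leaving out 1 library gave 391 to 633 higher and 642 to 1191 lower.

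Of the other splicing genes, the number higher was 0 with no filter, with a filter of at least 0.1 FPKM and without the intensity trend, 10 with array weights and 7 with the replicate block, and 0 to 4 when 1 library was left out, against 2. The number lower was 0 with no filter, 2 under upper-quartile scaling, median centring or quantile normalization and 4 under TPM scaling, against 4. It was 17 with array weights, 9 with the replicate block and 1 to 6 when 1 library was left out.

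When 1 library was left out, the log2 difference of 4 ratios changed sign, with -0.046 to 0.05004 for TRA2B/TRA2A, -0.018 to 0.14 for HNRNPL/HNRNPLL, -0.0930 to 0.11 for U2AF2/U2AF1 and -0.054 to 0.089 for SF3B3/SF3B1.

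Same-numbered siMTA1 and control libraries had residual correlations of 0.331, 0.0219 and 0.219, and differently numbered ones of -0.277 to 0.0712. Not every library correlated best with its own number. The labels do not say whether same-numbered libraries were handled together, and this was not tested. With the replicate number as a block, 992 of all tested genes were higher and 2039 lower, against 744 and 1463 without it. Genes averaging under 1 FPKM were outside the test, and depth was only implied by the lowest values. The causes of these shifts were not tested.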
